A study of Mus musculus with 12 samples.

Results

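The insulin-like growth factor (IGF) system was followed in mouse pancreatic tumours through 10 genes, namely the ligands Igf1 and Igf2, the receptor Igf1r and the binding proteins Igfbp1 to Igfbp7. Members were the non-control array probes that carry 1 of these gene names, which gave 19 of 56605 probes. A probe was kept if 6 or more of the 12 arrays showed it well above background, which left 15 member probes for 9 genes, among 40457 probes for 27351 genes in all. The genes were chosen on earlier results of these arrays, with the differences between FAKi and vehicle known, so those differences are given here as a description.

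Tumours came from female C57BL/6 mice of 8 weeks with orthotopic tumours that the labels call KP, and the labels do not spell out the alleles or say whether 1 cell line was used. Over 14 days they were given FAKi (50 mg/kg by gavage, n = 6), an inhibitor of focal adhesion kinase that the labels do not name further, or vehicle (n = 6). Each tumour was measured on 1 one-colour array (Cy5 dye). Tumours are numbered 1 to 6 in each group; nothing further is said of how they were sampled, so p-values measure the spread between these samples.

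The 75th percentile of log2 signal was 13.07 ± 0.24 on FAKi arrays and 13.09 ± 0.69 on vehicle arrays (SD, n = 6 each; exact two-sided permutation p = 0.978), with vehicle 6 the dimmest array at 11.82. Spots well above background made up 68.7% to 76.1% on FAKi arrays and 66.6% to 75.9% on vehicle arrays. The 12 arrays lay on 5 slides. Slide 1 held FAKi 5 with vehicle 3 and 5, and slide 4 held FAKi 1 with vehicle 2 and 6; the other 3 slides held 1 group each. Of 8 epithelial markers and of 10 fibroblast markers, all were well above background on every array. Since each sample was a piece of tissue, fewer cells of a type and less RNA per cell cannot be told apart.

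As background, IGF-I and IGF-II are secreted peptides that resemble insulin and signal through the receptor tyrosine kinase encoded by Igf1r, which feeds the phosphoinositide 3-kinase and MAP kinase routes to growth and survival. In extracellular fluid most of the peptide is held by binding proteins, which lengthen its life and can withhold it from the receptor, and proteases that cut the binding proteins set it free. In pancreatic tumours, stromal cells are known as a source of IGF ligands.

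The array tests 6 of the measured genes with a pair of kept probes, and several pairs gave different values, so the probe behind each value matters. For each gene the probe of highest mean is called the main probe and the other the further probe. The first 30 bases of 8 probes, 5′ to 3′, are shown for the genes whose pairs are compared below. Capitals mark AATAAA, the consensus polyadenylation hexamer. Positions are those of the whole probe on mm9, per the array's design.
Igfbp5 main probe, chr1:72904829-72904888, minus strand: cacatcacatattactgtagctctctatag
Igfbp5 further probe, chr1:72904506-72904552, minus strand: tttagcattttggtacttaaggaAATAAAa
Igfbp3 main probe, chr11:7106193-7106252, minus strand: gagctttccttgagagcacaaaggaatctc
Igfbp3 further probe, chr11:7107949-7108008, minus strand: ggagaacctggcatatttggtttctgaatt
Igfbp4 main probe, chr11:98913334-98913393, plus strand: gagaagagaaacctcattcttggagtgaga
Igfbp4 further probe, chr11:98909591-98909650, plus strand: atgatcacaggtgcctgcagaagcatatgg
Igf1 main probe, chr10:87378456-87378515, plus strand: aaccattaaaaacatgccaccaagaccttc
Igf1 further probe, chr10:87393516-87393575, plus strand: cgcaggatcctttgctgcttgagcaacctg
The letters AATAAA, searched on the probe's own strand only, occurred in 1 of the 19 member probes and in 9.77% of all 56605 probes. In the Igfbp5 further probe the hexamer began at base 24, and 47 of the 60 bases of this probe were placed on the genome. The Igf1 main probe was designed on the RefSeq transcript NM_184052 and the further probe on NM_010512. For Igfbp3 and Igfbp5 the main probe was designed on a RefSeq transcript and the further probe on an Ensembl transcript. Which exons each probe covers was not analysed here. Some members are neighbours on the chromosome: the Igfbp2 probe, on the plus strand, ended 5769 bases before the Igfbp5 further probe on the minus strand. Likewise the Igfbp1 probe lay 3691 bases from the Igfbp3 main probe, again on opposite strands.

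Levels below are log2 signal minus the 75th percentile of the same array, so a level of 0 marks that percentile, and differences are FAKi minus vehicle on the log2 scale. In the limma fit over 27351 genes, 0 genes passed a Benjamini-Hochberg adjusted p of 0.05 (0.0% called; 1311 genes, or 4.79%, had an unadjusted p under 0.05). In the fit over 40457 probes 0 passed as well (0.0% called; smallest adjusted p = 0.288). Accordingly 0 of the 9 measured members passed, and the smallest adjusted p of a member was 0.573, for Igfbp5. In simulated data with the same number of arrays, limma recovered 15.5% of genes shifted by 1 log2 unit and 67.5% of those shifted by 2. A gene that did not pass may therefore still differ between the groups. The simulated noise was independent between genes and held no slide or array effect. Recovery was averaged over genes of all spreads, so it does not give the chance of a call for a single member. Of the 9 members, 8 had a difference below 0, while 39.5% of all genes lay below 0. The median was −0.20 for the members and 0.08 for all genes. Igf1 and Igf2 lay near 0 (−0.01 and −0.03), and their further probes lay above it (0.11 and 0.33). The count below 0 was 6 of 9 with a gene's probes averaged and 5 of 9 with slide as a block. The 2 groups did not overlap for 1 member, Igfbp5, against 0.239% of the genes measured in all 12 tumours.

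**Figure D1:**
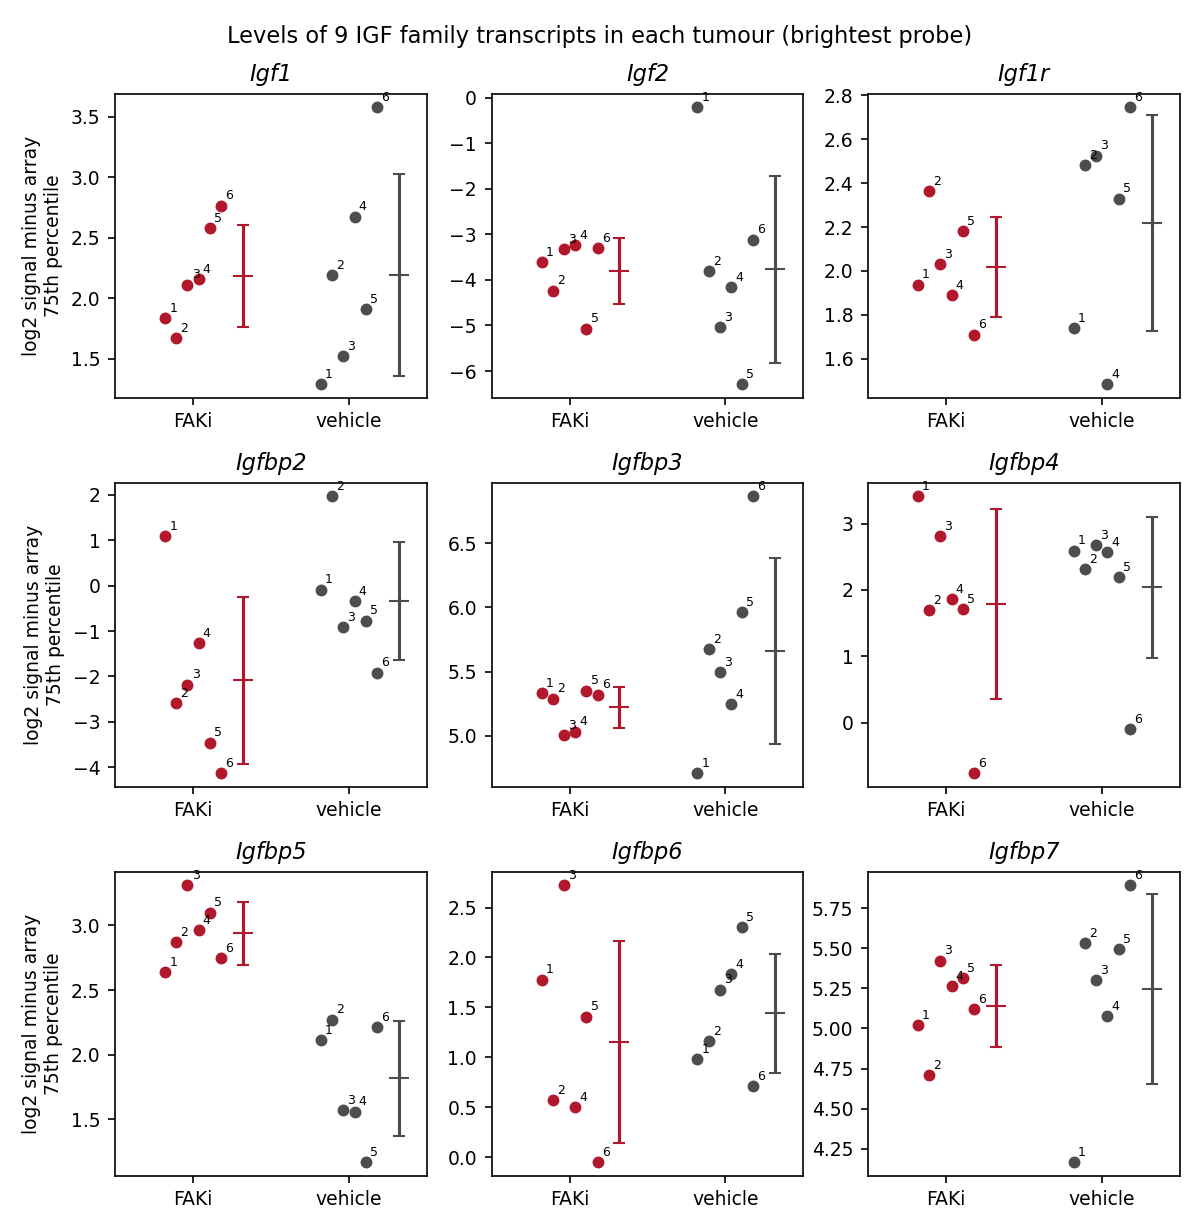
Level of each measured member in every tumour, read by its main probe, as log2 signal minus the array's 75th percentile (y axis, which differs between panels). Points are tumours numbered as in the labels, and bars are mean ± SD of 6 FAKi tumours (red) and 6 vehicle tumours (grey); the groups are apart for Igfbp5, and 1 tumour in each group lies far below the rest for Igfbp4.

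Igf1 encodes IGF-I, made under growth hormone in liver and locally in connective tissue. Its main probe read 1.84, 1.67, 2.11, 2.16, 2.58 and 2.77 in FAKi tumours 1 to 6, against 1.29, 2.19, 1.52, 2.68, 1.91 and 3.58 in vehicle tumours 1 to 6. The highest and the lowest tumour were both vehicle tumours, and the groups overlapped. Igf1 had the smallest difference of the family, −0.01 (SE 0.36), which ran from −0.19 to 0.27 as single tumours were left out. Within slides it was 0.87 on slide 1 and −1.05 on slide 4. The further probe read 1.65, 0.04, 1.87, 0.60, 2.11 and −0.18 in FAKi tumours, against −0.25, 0.50, 1.31, 1.33, 1.68 and 0.87 in vehicle tumours. By this probe, too, the groups overlapped, with a difference of 0.11 (SE 0.46; 0.62 and 0.97 within slides), but FAKi 6, the highest FAKi tumour by the main probe, was the lowest FAKi tumour by the further one. The remaining Igf1 probe was not well above background on any array.

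Igf2 encodes IGF-II, a fetal growth factor expressed from the paternal allele in most mouse tissues. By the main probe it read −3.60, −4.24, −3.33, −3.24, −5.07 and −3.30 in FAKi tumours, against −0.21, −3.82, −5.04, −4.16, −6.28 and −3.12 in vehicle tumours. Vehicle 1 stood 2.90 log2 units above the next vehicle tumour, and vehicle 5 was the lowest of the 12. The probe was well above background in 6 FAKi and 5 vehicle tumours. The difference was −0.03 (SE 0.78); without vehicle 1 it was 0.69 and without vehicle 5 it was −0.53, so its sign hung on single tumours. Within slide 1 it was 0.59 and within slide 4 −0.14. The dimmer further probe was well above background in 3 FAKi and 4 vehicle tumours and differed by 0.33 (SE 0.89), with −0.62 and 1.72 within slides.

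Igf1r encodes the receptor of both ligands. It read 1.94, 2.36, 2.03, 1.89, 2.18 and 1.71 in FAKi tumours, against 1.74, 2.48, 2.53, 1.49, 2.33 and 2.74 in vehicle tumours. All 6 FAKi tumours lay within the range of the vehicle tumours. The difference was −0.20 (SE 0.25) by the main probe and −0.20 (SE 0.29) by the further one. Within slides it was −0.25 and −0.68 by the main probe and −0.14 and −0.12 by the further one. Of the other Igf1r probes, 1 was not well above background on any array and 1 was so in 3 FAKi and 2 vehicle tumours.

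Among the binding proteins, Igfbp5 encodes a secreted protein that binds IGFs and also the extracellular matrix. It read 2.64, 2.87, 3.31, 2.97, 3.10 and 2.75 in FAKi tumours, against 2.12, 2.27, 1.57, 1.56, 1.17 and 2.21 in vehicle tumours. Every FAKi tumour was above every vehicle tumour, with a gap of 0.37 between the lowest FAKi and the highest vehicle value. The difference was 1.12 (SE 0.24), a 2.17-fold higher signal; 32 of 27241 genes (0.117%) had all FAKi tumours above all vehicle tumours. As single tumours were left out, the difference stayed between 0.99, without vehicle 5, and 1.21, without vehicle 2. The groups also stood apart after quantile normalisation, median centring, normexp background correction and in the authors' deposited table. Within slides it was 1.73 on slide 1 and 0.40 on slide 4.

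The Igfbp5 further probe lay 276 bases downstream of the main probe. It read −2.99, −5.11, −3.47, −4.28, −4.92 and −2.56 in FAKi tumours, against −3.11, −4.28, −5.93, −4.16, −8.36 and −7.25 in vehicle tumours. All 6 FAKi tumours were above the vehicle mean, but the groups overlapped, and the probe was well above background in 6 FAKi and 4 vehicle tumours. The difference was 1.63 (SE 0.82), from 1.06 to 2.11 as single tumours were left out, and 2.23 within slide 1 and 2.77 within slide 4. The lowest values were −8.36 in vehicle 5 (slide 1) and −7.25 in vehicle 6 (slide 4). On these arrays an Igf1 probe that was nowhere well above background read −8.30 and −7.19. Both within-slide differences, and the difference over all tumours, thus include vehicle values at the level of background. Marker genes of other cell types are given beside Igfbp5 as values, since 0 of them passed the adjusted threshold. For scale, 39.5% of all genes had a difference below 0. Of the 7 measured acinar genes, 7 had differences above 0, led by the trypsinogen gene Prss2 (1.23, SE 0.39) and the elastase gene Cela1 (1.11, SE 0.64). All 6 T cell genes and all 4 neutrophil genes were above 0 as well. The T cell differences were small, from 0.04 (Cd8b1, SE 0.43) to 0.16 (Cd3g, SE 0.44). Their median was 0.08, beside 0.08 for all genes, and that of the neutrophil genes was 0.37. With slide as a block the acinar differences ran from −0.20 (Cpa1 and Ctrb1) to 1.83 (Prss2). The summed acinar level ran from 0.05 to 0.56 in FAKi and from −0.82 to 0.24 in vehicle tumours. Ptf1a, a defining acinar factor, was not among the kept genes. Of 8 endothelial genes, 7 had differences below 0, led by Vwf (−1.07, SE 0.35) and Cdh5 (−1.05, SE 0.37). The 3 Vwf probes ran from −1.07 to −0.07, and the 2 Kdr probes from −0.34 to 0.66. On slides 1 and 4, Vwf differed by −0.76 and −1.22, and Cdh5 by −1.85 and 0.16. The summed endothelial level ran from −1.11 to 0.20 in FAKi and from −0.76 to 0.93 in vehicle tumours. Of 10 fibroblast genes, 5 had differences above 0 and 5 below, with the smallest p for Thy1 (0.34, SE 0.28) and Pdgfrb (0.32, SE 0.32), and the summed level ran from −0.43 to 0.45 in FAKi and from −0.92 to 0.86 in vehicle tumours. Of 6 adipocyte genes, 6 had differences below 0, with the smallest p for Adipoq (−2.98, SE 1.90) and Cfd (−2.03, SE 1.61). With slide as a block these 2 differences were −0.26 and 0.01. Adipoq differed by −3.08 within slide 1 and 2.56 within slide 4, and Cfd by −1.79 and 1.81. The Adipoq probe was well above background in 3 FAKi and 6 vehicle tumours. The summed adipocyte level ran from −2.36 to 1.66 in FAKi and from −2.61 to 3.29 in vehicle tumours. Of 7 hepatocyte genes, 3 had differences above 0 and 4 below, with the smallest p for Apoa1 (1.84, SE 0.44, adjusted p = 0.749) and Alb (2.43, SE 0.99), for both of which all 6 FAKi tumours exceeded the vehicle mean. Apoa1 differed by 3.83 within slide 1 and 0.54 within slide 4, and Alb by 2.83 and −1.03. The summed hepatocyte level ran from −0.31 to 1.06 in FAKi and from −1.92 to 1.1 in vehicle tumours. The part of these markers in the Igfbp5 difference was not tested.

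Igfbp3 encodes the main carrier of IGFs in blood, where it forms a complex with the acid-labile subunit. Its main probe read 5.33, 5.29, 5.01, 5.03, 5.35 and 5.32 in FAKi tumours, against 4.71, 5.68, 5.49, 5.25, 5.97 and 6.86 in vehicle tumours. The FAKi values were tightly grouped, within 0.34 log2 units, and the vehicle values spread widely to both sides of them. All 6 FAKi tumours were below the vehicle mean, and the difference was −0.44 (SE 0.31); it shrank to −0.20 without vehicle 6. Within slides it was −0.38 and −0.94. The further probe, 1696 bases away, read −3.54, −4.07, −5.36, −5.56, −5.79 and −4.62 in FAKi tumours, against −2.86, −3.04, −3.10, −3.11, −4.16 and −3.32 in vehicle tumours. Of the FAKi tumours, 4 were below all vehicle tumours and the other 2 below 5 of the vehicle tumours. The difference by this probe was −1.56 (SE 0.39, limma's probe-level adjusted p = 0.802), from −1.81 to −1.36 as single tumours were left out. Within slides it was −2.15 on slide 1 and −0.36 on slide 4.

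Igfbp2 encodes a binding protein with a preference for IGF-II and had the largest spread of the family. It read 1.09, −2.59, −2.18, −1.26, −3.46 and −4.12 in FAKi tumours, against −0.09, 1.97, −0.92, −0.33, −0.77 and −1.92 in vehicle tumours. The 4 lowest tumours were FAKi tumours, but FAKi 1 was the second highest of all 12, so the groups overlapped. The difference was −1.74 (SE 0.81, adjusted p = 0.999), from −2.38 without FAKi 1 to −1.28 without vehicle 2. It was −2.61 within slide 1 and 1.07 within slide 4, where FAKi 1 is the only FAKi tumour; with slide as a block it was −0.77. The range over 12 tumours was 68.2-fold, and 96.7% of genes had a smaller SD within groups.

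Igfbp4 encodes a binding protein that restrains IGF action until the protease PAPP-A cuts it. It read 3.41, 1.70, 2.81, 1.86, 1.71 and −0.76 in FAKi tumours, against 2.59, 2.32, 2.67, 2.57, 2.19 and −0.09 in vehicle tumours. FAKi 6 and vehicle 6 stood far below the others, which all lay at 1.70 or above. The difference was −0.25 (SE 0.64), and it was 0.26 without FAKi 6 and −0.68 without vehicle 6. Within slide 1 it was −0.72, and within slide 4, which holds vehicle 6, it was 2.30. The further probe gave the same order at the low end, with −2.64 in FAKi 6 and −1.61 in vehicle 6 against 0.56 to 2.52 in the other FAKi tumours and 1.0 to 1.87 in the other vehicle tumours. By it the difference was −0.20 (SE 0.79), with −0.79 and 2.71 within slides.

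Igfbp6, which encodes a binding protein that prefers IGF-II, read 1.78, 0.57, 2.72, 0.50, 1.41 and −0.05 in FAKi tumours, against 0.98, 1.16, 1.68, 1.83, 2.30 and 0.71 in vehicle tumours. The highest tumour and the 3 lowest were FAKi tumours. The difference was −0.29 (SE 0.44), and within slides −0.58 and 0.84. Igfbp7 encodes a low-affinity relative found around blood vessels; it read 5.02, 4.71, 5.42, 5.26, 5.31 and 5.12 in FAKi tumours, against 4.17, 5.53, 5.30, 5.08, 5.49 and 5.89 in vehicle tumours. All FAKi values lay within the vehicle range, and the difference was −0.10 (SE 0.28), with −0.09 and −0.69 within slides. Igfbp1, a liver and decidua protein, had 1 probe, which was not well above background on any of the 12 arrays, so no difference is given.

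**Figure D2:**
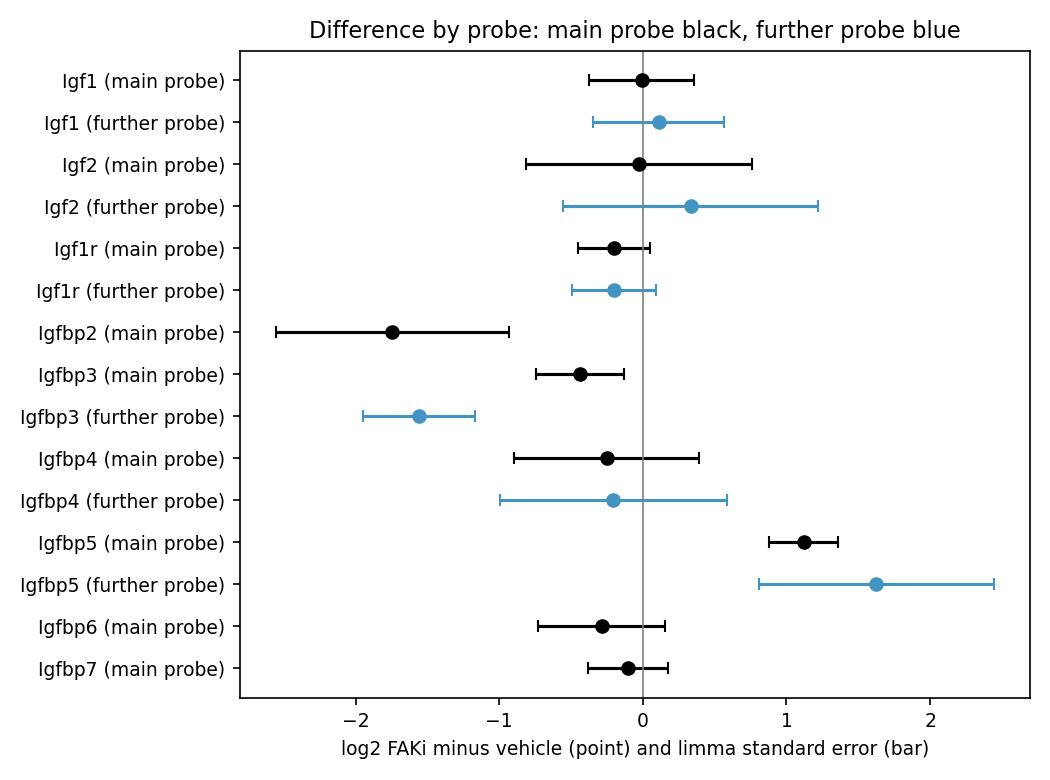
Difference in log2 signal, FAKi minus vehicle (x axis), for the 15 kept probes of 9 members, with main probes in black and further probes in blue. Points are differences of group means (n = 6 each) and bars are standard errors from the limma fit over all probes; both Igfbp5 probes lie above 0 and both Igfbp3 probes below it.

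By the main probes, the SD within groups was 1.60 for Igfbp2, 1.54 for Igf2 and 1.26 for Igfbp4, above that of 96.7%, 96.2% and 92.6% of genes. It was 0.36 for Igfbp5 and 0.38 for Igf1r, above that of 15.2% and 18.6% of genes, while the median gene had 0.59. By these probes tumours differed most in Igfbp2, Igf2 and Igfbp4, and Igfbp5 had the smallest spread inside the groups. The further Igfbp5 probe spread widely, with an SD of 1.05 in FAKi and 2.02 in vehicle tumours.

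Probes of the same gene were then compared across the 12 tumours, with each group centred on its own mean so that treatment played no part. The 2 Igfbp4 probes, 3683 bases apart, followed each other closely (Pearson r = 0.99, permutation p adjusted over 6 pairs = 0.00012; rho = 0.97, permutation p = 2e-05; r = 0.98 without the 2 farthest tumours and 0.99 centred by slide as well). The other 5 pairs did not pass. Their r was 0.45 for Igf1r, 0.31 for Igf2, 0.30 for Igfbp5, 0.12 for Igf1 and −0.12 for Igfbp3. The probes of these pairs were 125 bases apart for Igf1r, 276 for Igfbp5, 1696 for Igfbp3, 2486 for Igf2 and 15000 for Igf1, and a relation of r with distance was not tested. Leaving out vehicle 6 gave r = 0.73 for Igf1r and 0.51 for Igfbp5.

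**Figure D3:**
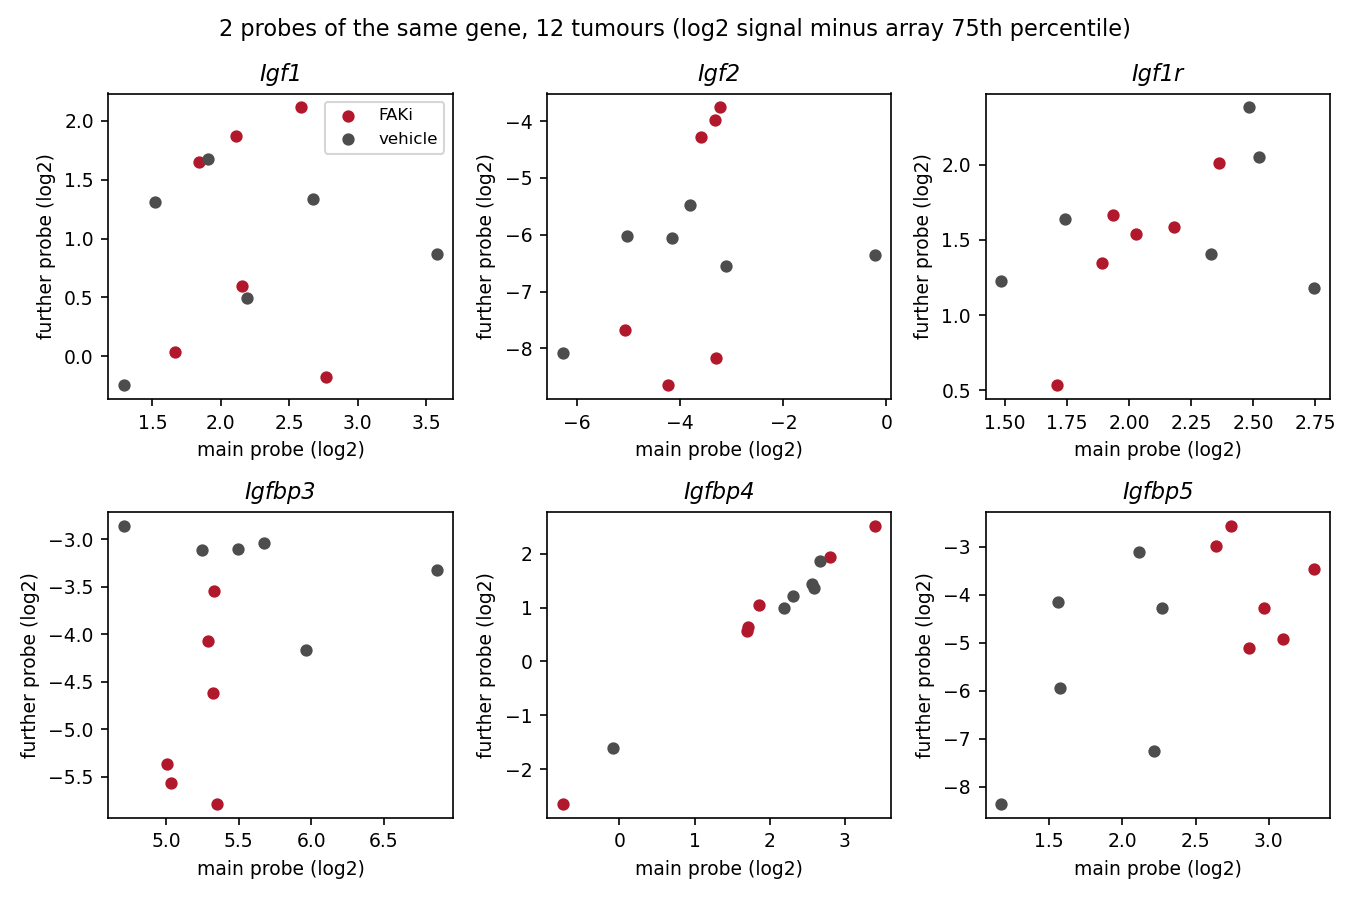
Main probe (x axis) against further probe (y axis) of the same gene, each as log2 signal minus the array's 75th percentile, for 6 FAKi tumours (red) and 6 vehicle tumours (grey). The Igfbp4 points fall on a line with FAKi 6 and vehicle 6 at its low end, whereas the Igf1 and Igfbp3 points do not line up.

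Several members moved with the brightness of the array. Over 30 relations of 15 probes with 2 array measures, 7 passed an adjusted permutation p of 0.05, again on group-centred values; adjusted p-values are those of r, and the p given with rho is its unadjusted permutation p. With the 75th percentile of signal, which is also subtracted from every level, r was −0.88 for the Igf1 main probe (adjusted p = 0.0252; rho = −0.81, p = 0.00331) and −0.89 for the Igfbp3 main probe (adjusted p = 0.0298; rho = −0.59, p = 0.0612). It was 0.71 (adjusted p = 0.0254; rho = 0.73, p = 0.00931) and 0.67 (adjusted p = 0.0289; rho = 0.69, p = 0.0163) for the Igfbp4 main and further probes. Without the 2 tumours of most extreme brightness these values were −0.62, −0.34, 0.64 and 0.63, so the relation of the Igfbp3 main probe rests on those tumours. With the share of spots well above background, r was 0.79 for the Igfbp3 further probe (adjusted p = 0.0042; rho = 0.83, p = 0.00024), 0.83 for the Igfbp5 further probe (adjusted p = 0.0254; rho = 0.79, p = 0.012) and −0.75 for Igfbp7 (adjusted p = 0.0309; rho = −0.66, p = 0.0429), and 0.88, 0.63 and −0.62 without the 2 tumours farthest in that share. Centred by slide as well, the same 7 values were −0.95, −0.91, 0.84, 0.84, 0.78, 0.68 and −0.76, in the order given. For the Igfbp5 main probe r was −0.18 with brightness and 0.01 with the share. The part of array brightness in the values of single tumours was not tested.

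The members were next set against the summed levels of 6 marker lists (fibroblast, smooth muscle and pericyte, endothelial, macrophage, epithelial and mesothelial). Igfbp1 was not measured, so 9 members gave 54 relations. By r, 0 passed after adjustment and 7 had an unadjusted permutation p under 0.05. By rho, adjusted separately, Igfbp6 with the endothelial level passed. The strongest was Igfbp6 with the endothelial level (r = 0.79, permutation p = 0.00209, adjusted p = 0.113; rho = 0.88, its own adjusted p = 0.0432). It was 0.82 without the 2 farthest tumours and 0.75 centred by group and slide, and it passed after median centring (r = 0.85, adjusted p = 0.0211). Igf2 ran the other way, with r = −0.76 (adjusted p = 0.199; rho = −0.67, its own adjusted p = 0.420) against the endothelial and r = −0.76 (adjusted p = 0.256; rho = −0.58, its own adjusted p = 0.518) against the macrophage level. The endothelial value was −0.63 without the 2 farthest tumours, whereas the macrophage value was −0.33. Centred by group and slide they were −0.76 and −0.59. These values are of the main Igf2 probe. By the dimmer further Igf2 probe, r was 0.28 with the endothelial and −0.12 with the macrophage level.

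**Figure D4:**
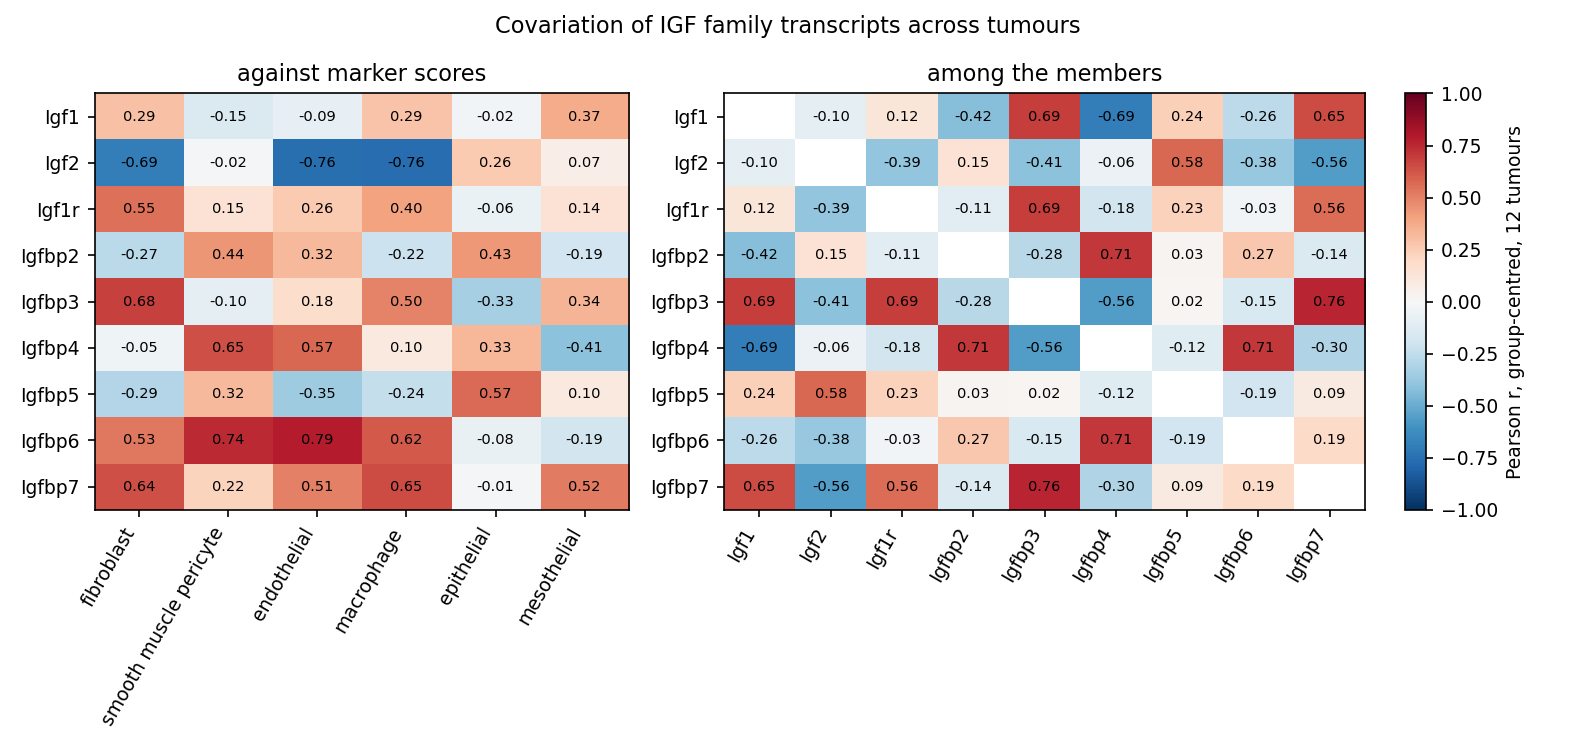
Pearson r over 12 tumours, each group centred on its mean, of 9 members with 6 marker scores (left) and with each other (right), from −1 (blue) to 1 (red). By the main probes, Igfbp6 is highest with the endothelial score at 0.79 and Igf2 is at −0.76 with the endothelial and macrophage scores. By r, 0 of the 54 and 0 of the 36 relations passed adjustment.

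Among the members themselves, 0 of 36 pairs passed, and 5 had an unadjusted permutation p under 0.05. The highest r was 0.76, for Igfbp3 with Igfbp7 (adjusted p = 0.325; rho = 0.47, its own adjusted p = 0.577), followed by 0.71 for Igfbp2 with Igfbp4 (adjusted p = 0.231; rho = 0.66, its own adjusted p = 0.463) and 0.71 for Igfbp4 with Igfbp6 (adjusted p = 0.231; rho = 0.73, its own adjusted p = 0.463). Igf1 and Igfbp4 stood at −0.69 (adjusted p = 0.231; rho = −0.58, its own adjusted p = 0.463), and at −0.48 without vehicle 6. Without the 2 tumours farthest from the median of the first gene these values were 0.67, 0.68, 0.53 and −0.52, and centred by group and slide they were 0.50, 0.88, 0.60 and −0.74. After quantile normalisation r was 0.01 for Igfbp3 with Igfbp7. With the 75th percentile of signal, r of the main probes was −0.89 for Igfbp3, −0.79 for Igfbp7 and −0.88 for Igf1. It was 0.71 for Igfbp4, 0.51 for Igfbp2 and 0.21 for Igfbp6. The part of array brightness in these pairs was not tested. The chromosomal neighbours Igfbp2 and Igfbp5 did not covary detectably (r = 0.03, adjusted p = 0.951; rho = −0.02, its own adjusted p = 0.977). After centring by slide as well, only 48 arrangements of the tumours remain and the smallest p is 0.0208; 0 relations passed.

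For the ligands and Igfbp5, the genes of most similar pattern were taken from 16984 named genes by group-centred r over the 12 tumours, as a description. Each gene was read by its main probe. For Igf1 the most similar genes were the integrin gene Itgam, the Golgi gene Golgb1 and the transcript Hk1os, each at 0.99. The Igf1 main probe itself had r = −0.88 with the 75th percentile of signal and 0.12 with the further Igf1 probe. Itgam is in the macrophage list, and with the level of that list the Igf1 main probe had r = 0.29. The part of array brightness in these matches was not tested. For Igf2 the most similar genes were Kbtbd13 at 0.92, Nipsnap3a at 0.91 and Slc12a3 at 0.89. For Igfbp5 they were the Wnt ligand gene Wnt7a at 0.90, the small nuclear RNA gene Rn7sk at 0.82 and Fhad1 at 0.82. The tumours share slides, and no level of r that the search would return by itself was computed.

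The rest of the pathway comprised 29 genes in 6 lists, of which 28 were measured and Pappa2 was not. None of the 28 passed (limma, smallest adjusted p = 0.906), and 4 had an unadjusted p under 0.05 (14.3% against 4.79% of all genes). Differences were above 0 for 13 genes and below 0 for 15, with a median of −0.03 beside 0.08 for all genes. In the list of binding protein proteases and their inhibitors, 5 of 5 measured genes were below 0, against 39.5% of all genes, with a median of −0.96. The gene nearest 0 was Stc1 (−0.03, SE 0.79), which stood at 0.74 with slide as a block. Pappa, the gene of PAPP-A, differed by −0.96 (SE 0.84) with −4.51 within slide 1 and 2.20 within slide 4. Both were dim: Pappa was well above background in 3 FAKi and 5 vehicle tumours, and Stc1 in 6 FAKi and 4 vehicle tumours. Stc2, an inhibitor of PAPP-A, was lower in all 6 FAKi tumours than the vehicle mean (−4.30 ± 0.76 in FAKi and −3.16 ± 0.41 in vehicle tumours, SD, n = 6 each; −1.14, SE 0.34, adjusted p = 0.906). Its difference was −0.72 within slide 1 and −0.09 within slide 4. Htra1, a secreted serine protease, differed by −0.98 (SE 0.63), and by −2.84 and −0.30 within slides.

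Of the related receptors, Igf2r, which clears IGF-II, differed by −0.70 (SE 0.34), and by −1.01 and −0.49 within slides. The insulin receptor gene Insr differed by 0.30 (SE 0.31), and by 0.31 and −0.43 within slides. Of the carriers, Igfals, the acid-labile subunit, differed by 0.46 (SE 0.46) and Igfbpl1, a related secreted protein, by 0.10 (SE 0.35). Both were above 0 within slide 1 (1.22 and 1.08) and below it within slide 4 (−0.86 and −0.33). Among hormonal genes, the growth hormone receptor gene Ghr averaged 1.15 ± 0.48 in FAKi and 1.77 ± 0.42 in vehicle tumours (SD, n = 6 each), a difference of −0.62 (SE 0.27) with −0.98 and −0.31 within slides, and the insulin gene Ins1 differed by 0.17 (SE 0.40), with 0.68 and −0.89 within slides.

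Of 11 signalling genes, Grb14, an adaptor that holds back the insulin receptor, averaged 0.72 ± 0.86 in FAKi and −0.14 ± 0.31 in vehicle tumours (SD, n = 6 each), a difference of 0.86 (SE 0.36) with 0.92 and 0.02 within slides. Foxo3, a transcription factor that Akt keeps out of the nucleus, differed by −0.53 (SE 0.27), and by −1.12 and −0.49 within slides, while its 3 probes ran from −0.53 to 0.32. Of 4 genes tied to Igf2 RNA, Igf2bp1, which binds that RNA, averaged 0.49 ± 0.48 in FAKi and −0.27 ± 0.34 in vehicle tumours (SD, n = 6 each). All 6 FAKi tumours exceeded the vehicle mean for Igf2bp1, and the difference was 0.76 (SE 0.26, adjusted p = 0.968) with 0.89 and 0.10 within slides. H19, the imprinted RNA gene beside Igf2, differed by 0.80 (SE 0.55), with −0.15 within slide 1 and 0.82 within slide 4.

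**Figure D5:**
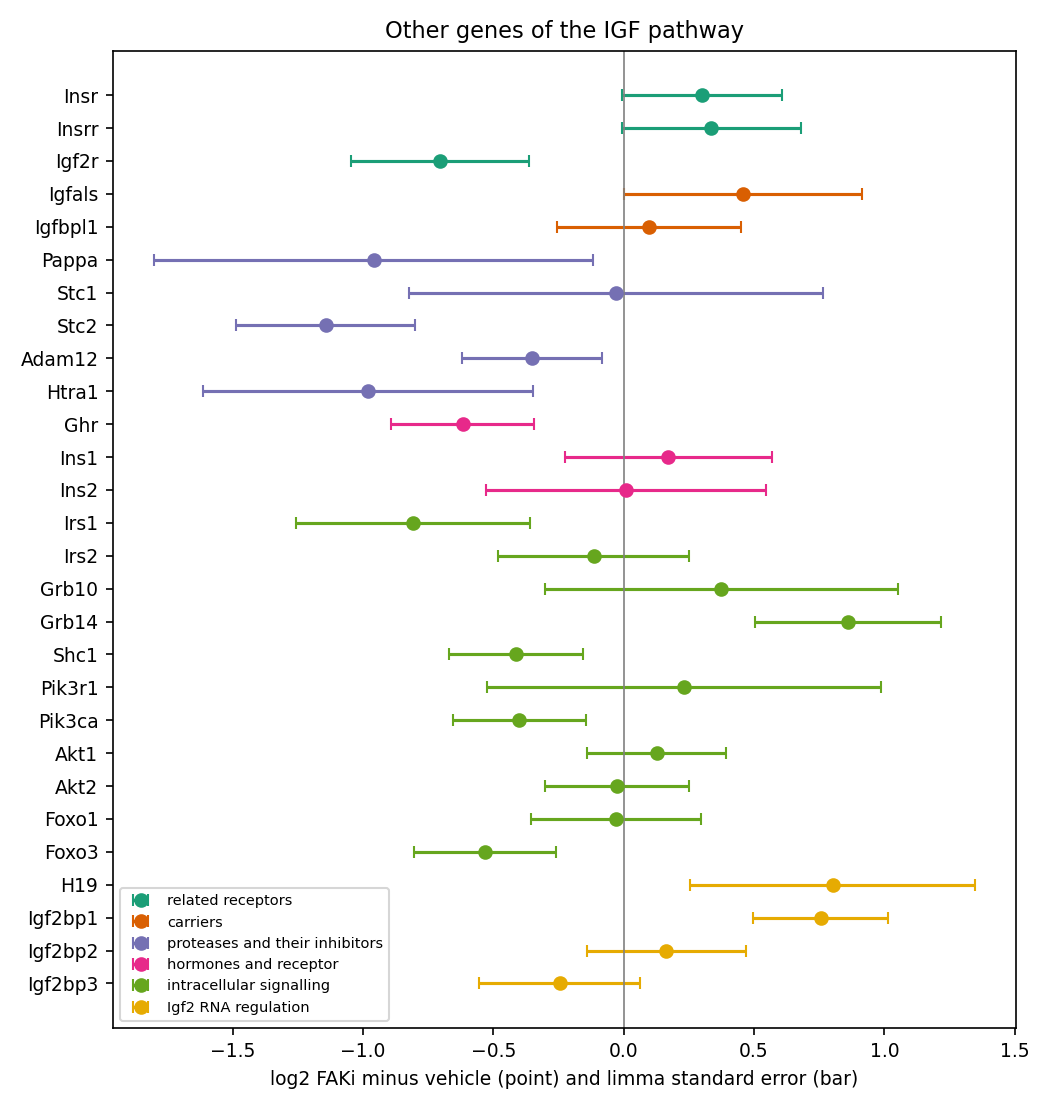
Difference in log2 signal, FAKi minus vehicle (x axis), of the 28 measured genes of 6 IGF pathway lists, coloured by list. Points are differences of group means (n = 6 each) and bars are limma standard errors. All 5 genes of the list of proteases and inhibitors lie below 0, with Stc1 at −0.03, against 39.5% of all genes. Of the 28 genes, 0 passed the adjusted threshold.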

How the data were processed

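The deposited scanner files give spot intensity, which Agilent Feature Extraction 11.5.1.1 wrote for the red channel with background subtraction and detrending but no scaling between arrays, per the file headers. The flags for spots well above background, saturated or outlying are those of the deposited scanner files. The authors' deposited table of log2 values for 38569 probes, an alternative here, correlated at 0.9965 or more with the matching arrays. Its medians lay between 10.71 and 10.90; limma is named in the submitters' processing notes, and its normalisation and probe filter are not given in the sources used here.

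Outlier spots (71 to 156 of 59305 per array) were left out; 0 were saturated. Processed signals were put on a log2 scale and centred on the 75th percentile of their array, spots of 1 probe were averaged, and probes well above background on at least 6 of 12 arrays were kept. Each gene was represented by its kept probe of highest mean. Probes were named through RefSeq accession (32994), symbol (10224), synonym (520) or the array's name (12867). FAKi was compared with vehicle by limma 3.58.1 (lmFit and eBayes, R 4.3.3) over all genes and, separately, all probes, with Benjamini-Hochberg adjustment at 0.05. Correlations used two-sided permutation within groups with 100000 resamples (SciPy 1.17.1, Python 3.11.15); the planned counts of relations were larger because Igfbp1 was not measured. A list's summed level is the mean over its genes of log2 value minus the gene's mean. The limma procedure was tested on simulated data in 20 simulations of 27241 genes, 200 of them changed, and made 5.1 false calls on average.

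Members and lists were chosen with earlier results of these data known. Named were every member probe, the 2 genes of smallest unadjusted p per pathway list and per marker list shown beside a result, and the 3 genes most like Igf1, Igf2 and Igfbp5, leaving out predicted genes, RIKEN clones and unnamed transcripts. Stc1 and Pappa were named after their values were seen. Alternatives were quantile normalisation, median centring, normexp (offset 50), the deposited table, other dim-probe filters, averaging over all kept probes, array weights, a robust variance trend, slide and replicate blocks, and each array left out. Leaving out vehicle 6 from the relations, and relations of further probes, were chosen after seeing the data. The number of arrays limits the precision.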

Additional observations from a re-analysis of the deposited data

Results flagged for a closer look

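In 3 of 30 groups of 6 tumours (15 probes, each in FAKi and in vehicle), 1 tumour lay farther from its neighbours than Dixon's 95% limit allows; chance alone gives about 1 in 20. Vehicle 6 was lowest by both Igfbp4 probes, at −0.092 by the main probe, with the other vehicle tumours between 2.19 and 2.67, and at −1.61 by the further probe, with the others between 1.0 and 1.87. Vehicle 6 was also the dimmest array. Vehicle 5 was lowest by the Igfbp3 further probe, at −4.16, with the other vehicle tumours between −3.32 and −2.86.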

How the results depend on the processing

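Of the members, 0 passed under any of 25 settings (24 for Igf2), with adjusted p for Igfbp5 from 0.0713 (array weights) to 1.0. Igfbp2, Igfbp3, Igfbp5 and Igf1r kept their sign under all 24 alternatives over both whole groups or with 1 tumour left out. Igf1 kept it under 16, Igf2 under 17 of 23, Igfbp4 under 22, and Igfbp6 and Igfbp7 under 23 each. These counts overstate how much was varied. The dim-probe filters, the robust variance trend and the replicate block returned the main difference of every member they measured. Fits with 1 tumour left out share all other tumours with the main fit. Of the 9 members, 5 were below 0 with slide as a block and 5 without vehicle 6. The count of 0 genes called became 1 with normexp (an unnamed transcript) and 4 with array weights (that transcript, 4930583P06Rik, Osbp2 and Ret), and lay between 0 and 3 as single arrays were left out, with 3 (Rab38, Stac and Zfp422) without FAKi 1. The count at an unadjusted p under 0.05, 1311, was 5164 with array weights, 494 with slide as a block, 3773 without vehicle 6, 872 without FAKi 2 and 763 without FAKi 4. The cause of these shifts was not tested. After median centring, 2 marker relations passed by r, Igfbp6 with the endothelial and with the smooth muscle and pericyte level. Averaging a gene's probes moved Igfbp3 to −1.0.

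Tumours share replicate numbers across groups, but the correlation of their deviations ran from −0.12 to 0.49 over 6 numbers, and only FAKi 6 matched the vehicle tumour of its own number best, so the numbers were not taken as pairs; with the replicate block 0 genes passed, and the unadjusted p was under 0.05 for 1666. Slides 1 and 4 each compare 1 FAKi tumour with 2 vehicle tumours and give no test. Levels of dim probes, among them Igf2, Pappa, Stc1, Adipoq and the further probes of Igfbp3 and Igfbp5, are limited by signal over background.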

Other observations

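The 6 further probes were set against the same 6 marker levels, 36 relations chosen after the data had been seen, and 2 passed, both of Igf1. The further Igf1 probe followed the endothelial level (r = 0.87, adjusted permutation p = 0.00684; rho = 0.88, permutation p = 0.00091; 12 group-centred tumours) and the macrophage level (r = 0.82, adjusted permutation p = 0.011; rho = 0.88, permutation p = 8e-05). These values were 0.77 and 0.80 without the 2 farthest tumours, 0.80 and 0.75 centred by slide as well, and 0.89 and 0.84 without vehicle 6. For the main Igf1 probe, r was −0.09 with the endothelial and 0.29 with the macrophage level; the difference between the probes was not tested. With the 75th percentile of signal, r was −0.18 for the further probe and −0.88 for the main probe. The further Igfbp5 probe stood at −0.82 with the fibroblast level (adjusted permutation p = 0.0608; rho = −0.78, permutation p = 0.0116) and −0.77 with the macrophage level (adjusted permutation p = 0.0608; rho = −0.66, permutation p = 0.0368), and at −0.59 and −0.49 without the 2 farthest tumours. For the main Igfbp5 probe, r with these levels was −0.29 and −0.24. With the share of spots well above background, r was 0.83 for the further Igfbp5 probe and 0.01 for the main probe. The part of the array measures in these relations was not tested.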
